A study of Homo sapiens with 4 samples.

Results

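Of the 6183 gene names to which APC ChIP-seq peaks were assigned in HCT-116 cells, 5031 were protein-coding, and 30 of these belonged to the tubulins, the tubulin-nucleating complex, the kinesins, cytoplasmic dynein and the classical microtubule-binding proteins. They are the genes with a peak in either replicate among those chosen by a name pattern that covers tubulins, TUBGCP genes, kinesins, MAPRE, CLASP, CLIP, MAP, MAP1LC3, dynein and stathmin genes. Genes of that pattern without a peak are counted below. The 30 carried 24 of 6263 peaks in replicate 1 and 29 of 8393 peaks in replicate 2. HCT-116 is a human colon cancer line that makes wild-type APC together with a β-catenin mutant that resists degradation, and the cells were untreated. Chromatin was precipitated with a polyclonal antibody against the C-terminal end of APC in 2 independent biological replicates made months apart, each set by the authors against its own input chromatin in peak calling. Replicate and date of preparation therefore cannot be told apart, and the input libraries were not analysed here. The lists gave a position and a width for each peak but no read count, so depth was unknown, no test over samples was possible, and the labelled cell line could not be checked against its markers.

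Microtubules are hollow polymers of α- and β-tubulin that are nucleated by γ-tubulin rings, grow and shrink at their plus ends, and serve as tracks for kinesin and dynein motors. APC binds microtubules directly through its C-terminal part and meets the end-binding protein MAPRE1 (EB1) at growing plus ends, where it helps to orient spindles and migrating epithelial cells. The peaks described here were a different readout: they lay on chromatin, in or near the genes that encode such cytoskeletal proteins.

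RefSeq listed 118 protein-coding genes that fit the name pattern, and the 30 genes with a peak were all among them. This left 88 with none under their current name, although DYNLT4, among these 88, had a replicate 1 peak under a former name. Former names were matched in the counts over all protein-coding genes but not in those of the 118. A gene had a shared region when the centre of a replicate 1 peak lay under 400 bp from that of a replicate 2 peak. By this measure 14 of the 118 genes had a shared region (11.9%, 95% exact interval 6.64 to 19.1%), against 11.0% of all 20056 protein-coding genes. In replicate 1, 20 of the 118 genes carried a peak (16.9%, interval 10.7 to 25.0%), against 16.4% of all protein-coding genes. In replicate 2, 24 carried a peak (20.3%, interval 13.5 to 28.7%), against 19.7%. All 3 shares lay close to the background, so microtubule genes carried APC peaks about as often as other genes. These and all later intervals cover counting error only.

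The sequences that follow come from the replicate 1 peaks and are written on the forward strand of hg19, with motif matches in capitals. They were picked to show the different kinds of place in which the shared regions lay: the upstream flank of a small RNA gene, a CpG island, a retroviral repeat, promoters and introns. Every window printed holds a match, so they do not stand for the shared regions without one, such as the TUBGCP3 promoter. The capitals mark AP-1 sites (TGACTCA or TGAGTCA) in the upstream KIF2C peak and in TUBGCP6, the SP1 consensus in DYNC1H1, the USF E-box (CACGTG) in TUBGCP6, STMN1 and TUBA1C, the EGR1 site (GCGGGGGCG or GCGTGGGCG) that follows the E-box of STMN1, and a TCF7L2 site (AACAAAG or ATCAAAG or TACAAAG or TTCAAAG) in MAP2. Both strands were searched. A match is a match of letters and not a measured binding site. DYNC1H1 was printed by a rule on peak width, and the other windows were added after their values had been seen. Windows at promoters were shortened to leave out untranslated exon bases.
KIF2C peak upstream of RNU5D-1, chr1:45196909-45197108: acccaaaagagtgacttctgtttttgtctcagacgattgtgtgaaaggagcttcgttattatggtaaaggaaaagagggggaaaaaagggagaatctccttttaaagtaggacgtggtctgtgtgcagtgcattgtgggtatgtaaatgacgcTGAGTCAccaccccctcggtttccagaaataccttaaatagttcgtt
DYNC1H1 upstream CpG island, chr14:102414548-102414747: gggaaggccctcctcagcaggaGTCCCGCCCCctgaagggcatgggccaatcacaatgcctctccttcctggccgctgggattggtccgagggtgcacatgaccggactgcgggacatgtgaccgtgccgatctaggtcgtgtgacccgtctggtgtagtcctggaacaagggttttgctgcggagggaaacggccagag
TUBGCP6 LTR13 repeat, chr22:50680077-50680276: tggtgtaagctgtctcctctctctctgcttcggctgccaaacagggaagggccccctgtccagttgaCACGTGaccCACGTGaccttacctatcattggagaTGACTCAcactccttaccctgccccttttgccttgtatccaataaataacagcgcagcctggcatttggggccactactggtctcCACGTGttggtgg
STMN1 promoter, chr1:26232958-26233122: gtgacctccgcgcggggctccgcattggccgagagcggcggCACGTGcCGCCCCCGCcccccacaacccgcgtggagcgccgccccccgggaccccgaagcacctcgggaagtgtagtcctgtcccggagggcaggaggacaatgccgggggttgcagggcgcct
TUBA1C promoter, chr12:49658811-49658863: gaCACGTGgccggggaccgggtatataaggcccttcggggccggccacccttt
MAP2 intron 1, chr2:210338882-210339081: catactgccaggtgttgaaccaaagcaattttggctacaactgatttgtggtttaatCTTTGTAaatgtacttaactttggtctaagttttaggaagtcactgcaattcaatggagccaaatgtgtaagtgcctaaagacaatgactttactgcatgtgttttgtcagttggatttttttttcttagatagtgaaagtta

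Over the 118 genes, 30 carried a peak in either replicate (25.4%, interval 17.9 to 34.3%), against 24.7% of all protein-coding genes. Among 24 tubulins, 8 carried a peak in either replicate and only TUBA1C had a shared region. Of the 5 genes of the γ-tubulin complex that fit the name pattern, TUBGCP3 and TUBGCP6 had a shared region and the other 3 had no peak. Of 42 kinesins, 7 carried a peak and KIF2C, KIF13B and KIF17 had a shared region. Among the 9 plus-end genes, CLASP2, CLIP2 and CLIP4 had a shared region and MAPRE2 had a replicate 2 peak only. MAPRE1, whose protein is the partner of APC at plus ends, had no peak. By coding start sites in GENCODE, a shared region deposited under RNU4ATAC lay 328.5 bp from a start of CLASP1. Another, deposited under TMEM214, lay 3884.5 bp from a start of MAPRE3. MAP2 was the member with a shared region among 9 microtubule-associated protein genes, MAP1LC3B among 5 LC3 genes and STMN1 among 5 stathmin genes. Of 19 cytoplasmic dynein genes, DYNC1H1 and DYNLRB1 had a shared region. With so few genes per group the intervals were wide, at 0.105 to 21.1% for the tubulins and 7.49 to 70.1% for the plus-end genes, and in each of the 8 groups the interval held the 11.0% of all protein-coding genes. No difference between the groups was tested.

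**Figure D1:**
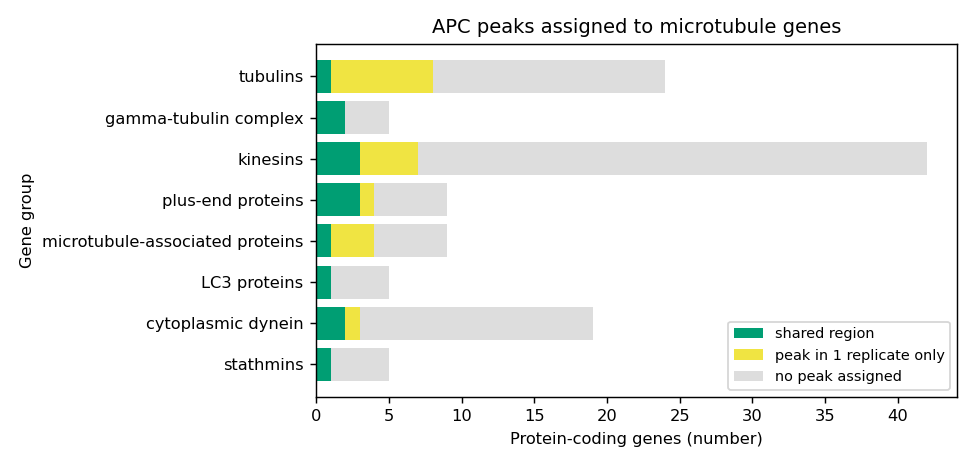
Number of protein-coding genes in each microtubule gene group with a shared APC region (green), with a peak in 1 replicate only (yellow) and with no peak under their current name (grey). The tubulins had 8 of 24 genes with a peak but 1 with a shared region, and the kinesins had 35 of 42 genes without a peak.

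Peaks of microtubule genes were found again in the other replicate about as often as peaks at large. In replicate 1, 18 of the 24 peaks were shared (75.0%, interval 53.3 to 90.2%), against 63.6% of all peaks. In replicate 2, 16 of the 29 were shared (55.2%, interval 35.7 to 73.6%), against 45.5% of all peaks. Both background shares lay inside the intervals. The 18 regions corresponded to 16 replicate 2 peaks because 3 replicate 1 peaks near KIF2C met a single broad replicate 2 peak. All 18 overlapped their partner by position. Their centres lay a median of 51.5 bp apart, against 64.5 bp for all 3984 shared regions. The most distant pair counted as shared was at KIF2C with 271.5 bp, and the nearest pair not counted as shared was at TUBB3 with 5230.5 bp, so no microtubule gene sat near the limit.

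Width was the only measure of size in the lists. The shared regions of microtubule genes had a median width of 371 bp in replicate 1, against 432.5 bp for all shared regions, and of 624.5 bp in replicate 2, against 650 bp. In 17 of the 18 the replicate 2 peak was the wider, as in 3603 of all 3984, and the median ratio of replicate 2 to replicate 1 was 1.631, against 1.508. Unshared peaks were narrower. In replicate 1 the 18 shared peaks had a median of 371 bp and the 6 unshared ones 166.5 bp, and over all peaks the same medians were 432.5 and 238 bp. In replicate 2 the 16 shared peaks had a median of 598.5 bp and the 13 unshared ones 417 bp, and over all peaks 644 and 432 bp.

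**Figure D2:**
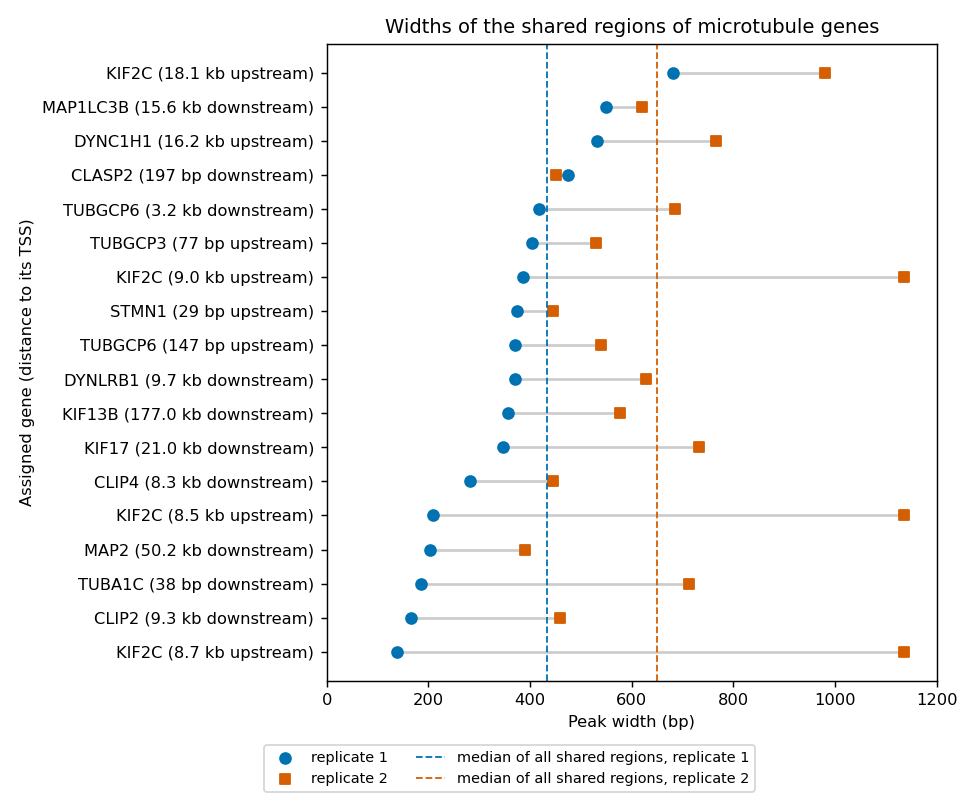
Width in bp of each of the 18 shared regions in replicate 1 (blue circles) and replicate 2 (orange squares), labelled by assigned gene and distance to its transcription start site (TSS), with dashed lines at the medians of all shared regions (432.5 bp and 650 bp). CLASP2 is the only row in which the replicate 2 peak was narrower, and 3 KIF2C rows share the same 1136 bp replicate 2 peak.

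Start sites were not where most of these regions lay. Within 1 kb of a TSS were 5 of the 18 (27.8%, interval 9.69 to 53.5%), against 37.0% of all shared regions. Between 5 and 50 kb away were 10 (55.6%, interval 30.8 to 78.5%), against 29.3%, and over 50 kb away were 2 (11.1%, interval 1.38 to 34.7%), against 26.3%. Of these shares by distance, the one between 5 and 50 kb had an interval above the background. However, 4 of those 10 regions were assigned to KIF2C and 3 of these met the same replicate 2 peak. Without KIF2C the share was 6 of 14 (42.9%, interval 17.7 to 71.1%), and with those 3 peaks counted once it was 8 of 16 (50.0%, interval 24.7 to 75.3%), and both intervals held the background. Among the 29 replicate 2 peaks, shared or not, 14 lay between 5 and 50 kb away (48.3%, interval 29.4 to 67.5%), against 30.0% of all replicate 2 peaks, and 3 lay over 50 kb away (10.3%, interval 2.19 to 27.4%), against 32.3%, which was above that interval. By annotation 8 lay in an intron (44.4%, against 31.3%), 4 in a promoter (22.2%, against 30.5%), 4 between genes (22.2%, against 31.0%), and 1 each in a 5′ and a 3′ UTR.

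**Figure D3:**
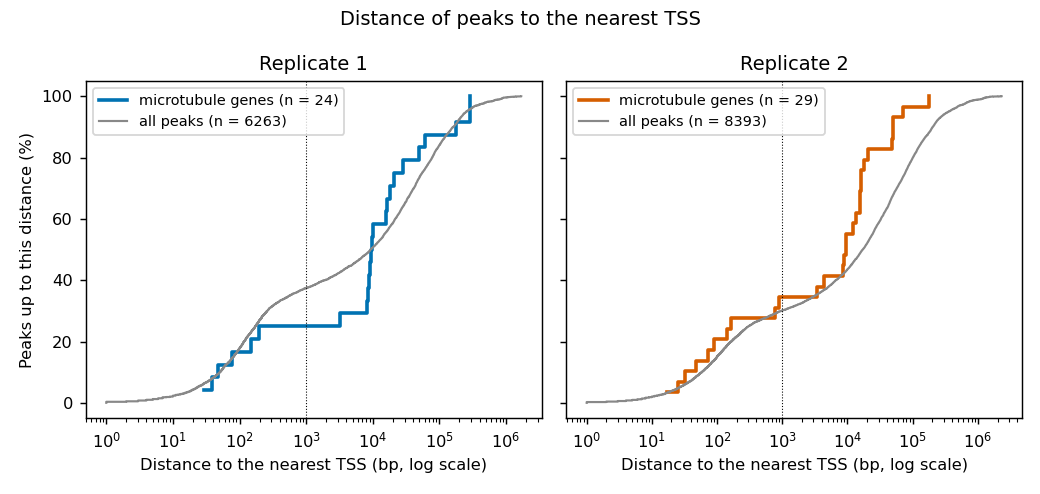
Cumulative share of peaks (%) against their distance to the nearest TSS (bp, log scale) in each replicate, for peaks of microtubule genes (coloured) and all peaks (grey), with a dotted line at 1000 bp. In replicate 1, 25.0% of microtubule peaks and 37.5% of all peaks lay left of the line, and in replicate 2 34.5% and 30.1%.

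Of the tubulins, whose α and β forms build the polymer, only the α-tubulin gene TUBA1C had a shared region. It lay at the TSS, with a width of 186 bp in replicate 1 and 712 bp in replicate 2, so that the replicate 2 peak was 3.83 times as wide. The USF E-box in the printed window stood near the left edge of the replicate 1 peak. Another 7 tubulin genes had a peak in a single replicate. TUBB3, a β-tubulin best known from neurons, had a promoter peak of 409 bp in replicate 1, 48 bp upstream of its TSS, while the nearest replicate 2 peak was assigned to MC1R. TUBB6 had a replicate 1 peak of 137 bp that lay 28823 bp downstream of its TSS, in intron 16 of AFG3L2. In GENCODE the centre of that peak also lay inside TUBB6.

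Of the 6 tubulin peaks found in replicate 2 alone, 3 lay within 1 kb of the TSS. TUBA1B, which encodes a ubiquitous α-tubulin, had the widest of them at 927 bp, in a CpG island 893 bp downstream of its TSS. TUBB, the major β-tubulin gene of dividing cells, had a peak of 458 bp with its centre 72 bp from the TSS and another of 392 bp at its 3′ end. TUBA1A, TUBB4B and TUBB8 had peaks of 352, 322 and 173 bp. The peak given to TUBA1A lay 12095 bp upstream of that gene and, in GENCODE, inside TUBA1C. Tubulin genes are close copies of each other, which matters for read placement. Exact copies were counted in words of 50 bases, the read length. No word of the TUBA1B, TUBB, TUBB3, TUBB4B and TUBA1A peaks occurred elsewhere in the genome, nor did any in the TUBA1C peak of replicate 1. Of the words of the TUBB8 peak 52.8% did, but that peak lay in an L1MA2 repeat. It was 13656 bp upstream of the TSS used by the authors and, in GENCODE, inside TUBB8.

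TUBGCP3 and TUBGCP6 encode subunits of the γ-tubulin ring complex, from which new microtubules grow, and both had a shared promoter region. At TUBGCP3 it was 403 bp wide in replicate 1 and 529 bp in replicate 2, with the replicate 1 centre 77 bp upstream of the TSS. At TUBGCP6 it was 371 bp and 539 bp wide, 147 bp upstream, and it also overlapped HDAC10. None of the searched motifs occurred in either promoter region. TUBGCP6 had another shared region 3224 bp downstream of its TSS, 418 bp wide in replicate 1 and 686 bp in replicate 2, which lay in an LTR13 repeat of endogenous retroviral origin inside intron 1. As the printed window shows, this region held an AP-1 match and 3 E-boxes. Repeats can collect reads from other copies, and 20.4% of its 50-base words in replicate 1 and 19.7% in replicate 2 occurred elsewhere. The part of such copies in the peak was not tested.

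Of the kinesins, KIF2C had the most regions. KIF2C (MCAK) is a kinesin that does not walk but takes tubulin off microtubule ends, and it corrects faulty attachments at centromeres. None of its 4 replicate 1 regions lay at its own TSS. The widest, 681 bp in replicate 1 and 981 bp in replicate 2, was 18099 bp upstream of the TSS, in intron 6 of the neighbouring gene ARMH1, and covered the whole of the 117 bp gene RNU5F-1 in both replicates. The others were 387, 138 and 209 bp wide in replicate 1 and lay next to each other at 9003, 8729 and 8482 bp upstream, where replicate 2 had a single peak of 1136 bp. The 138 bp peak covered 103 bp, or 88.8%, of the 116 bp gene RNU5D-1, and the replicate 2 peak covered all of it.

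RNU5F-1 and RNU5D-1 encode variants of U5 small nuclear RNA (snRNA), a part of the spliceosome, and are transcribed from the minus strand, away from KIF2C. The nearest coding start in GENCODE was that of ARMH1, 2065 bp from the centre of the 681 bp region, although the annotation of the authors assigned it to KIF2C. The 209 bp peak lay 63 to 270 bp upstream of the RNU5D-1 start and held an AP-1 match, shown above, and the 387 bp peak lay beyond its 3′ end. In all, 2 of the 18 shared regions of microtubule genes lay over an snRNA gene (11.1%, interval 1.38 to 34.7%), against 33 of all 3984 (0.828%). That interval lay above the share of all shared regions, but both regions were assigned to KIF2C. U5 genes have copies in the genome. Of the 50-base words of the 138 bp peak, 6.82% had an exact copy elsewhere, and of the 681 bp peak none did. Inexact copies were not counted, and the part of copies in these peaks was not tested. Without KIF2C, an alternative added after the data had been seen, 13 genes had a shared region and 35.7% of the regions lay within 1 kb of a TSS.

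**Figure D4:**
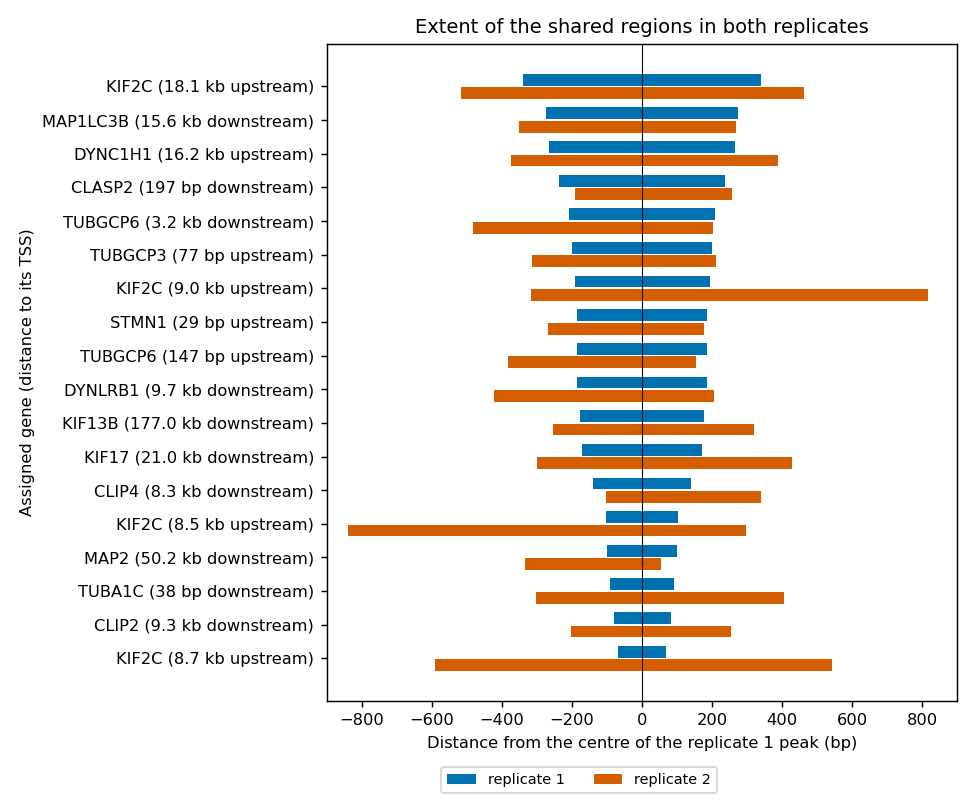
Extent of each shared region in replicate 1 (blue) and replicate 2 (orange), as distance in bp from the centre of the replicate 1 peak, labelled by assigned gene and distance to its TSS. All 18 pairs overlap, and the KIF2C regions of 387, 138 and 209 bp are each covered by the same 1136 bp peak of replicate 2.

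The other kinesins with shared regions were motors for cargo. KIF17, a motor of the kinesin-2 class that carries receptors along dendrites, had a region of 346 bp in replicate 1 and 732 bp in replicate 2 in intron 6, 21031 bp from the TSS used by the authors. GENCODE placed another start of KIF17 1453 bp away. KIF13B, a transport kinesin, had a region of 356 bp and 577 bp in intron 37 of 39, 176962 bp from its TSS and 22061 bp from the nearest KIF13B start in GENCODE, with a TCF7L2 match. Of kinesins with a peak in 1 replicate, KIF25 had 420 bp and KIF2B 155 bp in replicate 1, at 10128 and 291375 bp upstream and in LTR51 and L1PA3 repeats. In GENCODE the centre of the KIF25 peak lay inside KIF25, 5687 bp from its nearest start. For KIF2B 83.8% of the 50-base words occurred elsewhere. In replicate 2, KIF9 had 417 bp over a promoter that it shares with the divergent gene KLHL18, and KIF21A 285 bp at its first exon.

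Plus-end proteins bind growing microtubule tips, as APC does. CLASP2, which stabilizes microtubules at the cell edge and kinetochores, had a shared region at its first exon, 197 bp downstream of the TSS, with 475 bp in replicate 1 and 450 bp in replicate 2. It was the only shared region that was narrower in replicate 2, with a ratio of 0.947. CLIP2 had a region of 165 bp and 459 bp in intron 1, 9344 bp downstream of its TSS. In replicate 1 it lay in an Alu repeat, and 9.57% of its 50-base words in replicate 1 and 17.8% in replicate 2 occurred elsewhere. CLIP4 had a region of 281 bp and 445 bp in intron 2, 8276 bp downstream, with a TCF7L2 match in the replicate 1 peak and an AP-1 match that only the replicate 2 peak reached. MAPRE2, a relative of EB1, had a replicate 2 peak of 350 bp, 47367 bp upstream of its TSS.

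The dynein motor carries cargo toward microtubule minus ends. Its heavy chain gene DYNC1H1 had a region of 531 bp in replicate 1 and 766 bp in replicate 2 with centres 6.5 bp apart, the closest match of the 18. It lay 16218 bp upstream of DYNC1H1 in a CpG island, over the starts of ENSG00000271780 and ENSG00000289482, long non-coding RNA genes that run in opposite directions, and held the SP1 match shown above and an E-box outside the printed window. DYNLRB1, a light chain of the same motor, had a region of 371 bp and 629 bp in intron 2, 9716 bp downstream of its TSS, with an AP-1 match. Its relative DYNLRB2 had a replicate 1 peak of 129 bp that lay 285800 bp upstream. A gene now named DYNLT4 carried a replicate 1 peak of 356 bp under its former name TCTEX1D4, 293 bp upstream of its TSS, and was not counted among the 30.

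STMN1 encodes stathmin, which binds free tubulin dimers and favours shrinkage. Its promoter region was 375 bp wide in replicate 1 and 445 bp in replicate 2, with the replicate 1 centre 29 bp upstream of the TSS, and it also covered the microRNA gene MIR3917. It was the only shared region of a microtubule gene with an EGR1 match, which stood beside an E-box. A further STMN1 peak of 642 bp, in intron 4, was seen in replicate 2 alone. MAP2, a dendritic protein that binds along the microtubule wall, had a region of 203 bp and 390 bp in intron 1, 50210 bp downstream of its TSS, with the TCF7L2 match shown above, and a peak of 566 bp in replicate 2 alone with 2 AP-1 matches. MAP1LC3B encodes LC3B, which coats autophagosomes and was first isolated with microtubule proteins. Its region of 549 bp and 620 bp lay 15604 bp downstream of its TSS, in the 3′ UTR of ZCCHC14. Among related genes with peaks in a single replicate, MAP7 had 178 bp in replicate 1, in an exon of MAP3K5, and MAP4 and MAP9 had 535 and 518 bp in replicate 2.

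Of the 18 shared regions, 10 had their centre inside the gene to which they were assigned (55.6%, interval 30.8 to 78.5%), against 50.9% of all shared regions assigned to protein-coding genes. A further 2, at KIF2C and MAP1LC3B, lay inside another coding gene (11.1%, against 10.1%), and 6 lay in none (33.3%, against 39.0%). By detailed annotation 5 regions lay in a repeat (27.8%, interval 9.69 to 53.5%), against 12.4% of all shared regions. KIF2C had 2 of the 5, which met the same replicate 2 peak, and 1 of these was annotated as the U5 snRNA gene itself. Without KIF2C the share was 3 of 14 (21.4%, interval 4.66 to 50.8%), and with peaks that met the same replicate 2 peak counted once it was 4 of 16 (25.0%, interval 7.27 to 52.4%). Among replicate 2 peaks the order was the other way, with 5 of 29 in a repeat (17.2%, interval 5.85 to 35.8%), against 22.1% of all replicate 2 peaks. The GC content had a median of 49.46%, against 52.21%. The observed over expected ratio of CpG was 0.4197, against 0.3744.

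The transcription factor motifs that the study examined were scanned over the full width of the replicate 1 peaks. An AP-1 match occurred in 3 of the 18 (16.7%, interval 3.58 to 41.4%), at DYNLRB1, KIF2C and TUBGCP6, against 32.9% of all shared regions. A TCF7L2 match occurred in 4 (22.2%, interval 6.41 to 47.6%), at CLIP4, KIF13B, MAP1LC3B and MAP2, against 33.4%. With regions assigned to the nearest coding start in GENCODE the share was 43.3%, above the background instead of below it. That set was partly different, as the regions of KIF2C and MAP1LC3B left it. Regions deposited under LINC01375, MIR610 and LINC00173 entered it, several from each locus, those at LINC01375 at 363849.5 to 503829.5 bp from KIF20B. No interval was computed for the share of 43.3%. The direction therefore depended on which regions were counted. In the replicate 1 peaks none of the 18 regions held both motifs, so 7 had either of them (38.9%, interval 17.3 to 64.3%), against 49.9%. The wider replicate 2 peak of the CLIP4 region held both. In replicate 1 the E-box occurred in 5 (27.8%, interval 9.69 to 53.5%), at DYNC1H1, KIF17, STMN1, TUBA1C and TUBGCP6, against 20.2%. SP1 and EGR1 matches occurred there in 1 region each (5.56%), against 12.6% and 4.37%, and an NRF1 match in 0 of 18, which allows a share of up to 18.5%, against 2.31%. The wider replicate 2 peaks also held E-boxes at CLIP2 and an SP1 match at TUBA1C, which these counts leave out. All 6 intervals held the share of all shared regions, so a difference from other regions was not detectable with 18 regions. Over the 29 replicate 2 peaks, shared or not, a TCF7L2 match occurred in 5 (17.2%, interval 5.85 to 35.8%), against 36.8% of all replicate 2 peaks, which lay just above that interval. For the other 5 motifs the share of all replicate 2 peaks lay inside the interval, the E-box with 34.5% (interval 17.9 to 54.3%), against 18.0%, at its edge.

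**Figure D5:**
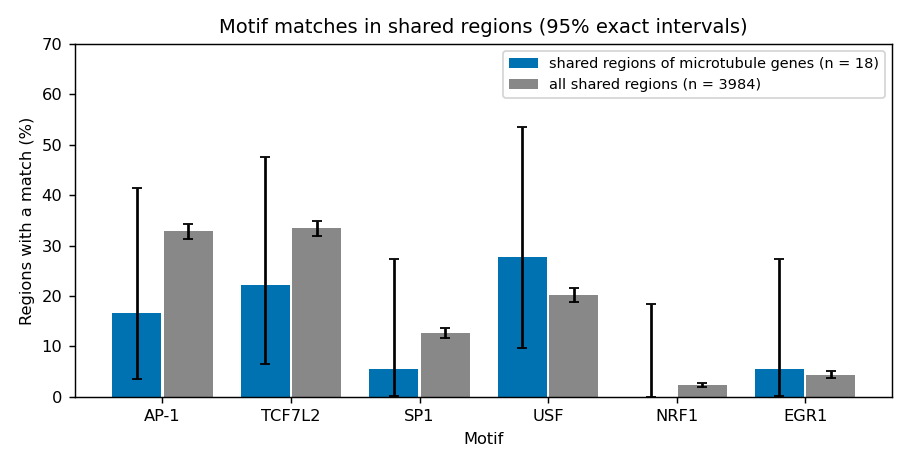
Share of shared regions (%) with a match to each of 6 motifs, for regions of microtubule genes (blue, n = 18) and all shared regions (grey, n = 3984), with 95% exact intervals as bars. Each blue interval includes the grey share, for example 3.58 to 41.4% around 16.7% for AP-1, against 32.9%.

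Outside the name pattern, 132 further genes of microtubule biology were examined in 9 lists. Of these, 33 carried a peak in either replicate (25.0%, interval 17.9 to 33.3%), against 24.7% of all protein-coding genes, and 14 had a shared region (10.6%, interval 5.92 to 17.2%), against 11.0%. Both shares were at the background. In the longest list, spectraplakins and other binders, 7 of 27 genes had a shared region (25.9%, interval 11.1 to 46.3%, with its lower end beside the background of 11.0%): MACF1, DST, MTUS1, EML4, NAV3, PHLDB1 and PHLDB2. MACF1 and DST are giant proteins that link microtubules to actin, and PHLDB1 and PHLDB2 are LL5 proteins that anchor CLASP at the cell cortex. The lists were drawn up with earlier results of these data known, and PHLDB2 is a locus that the study selected with these peaks, so this count is a description only. MACF1 had 4 shared replicate 1 regions within the gene, of which 2 were deposited under the name KIAA0754. The widest had 712 bp in replicate 1 and 975 bp in replicate 2 and lay in intron 1. The widest DST region had 796 bp and 904 bp. Both severing enzymes with a peak, KATNAL1 and FIGNL1, had a shared region among 7 severing genes (28.6%, interval 3.67 to 71.0%).

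The remaining lists held few. Of 12 dynactin genes, CAPZA2 had shared regions, but those lay 51820 to 91538 bp upstream, most of them in introns of the neighbouring gene MET. HOOK2 was the member with a shared region among 14 dynein regulators, DNAH12 among 13 axonemal heavy chains, and TTLL5 and AGTPBP1 among 24 genes for tubulin folding and modification. None of the 18 spindle and microtubule-end genes, the 11 centrosomal anchors or the 6 kinesin light chain genes had a shared region, although 3, 1 and 2 of them carried an unshared peak. The APC gene itself had no peak.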

How the data were processed

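Chromatin regions bound by APC were measured by ChIP-seq in 2 replicates of HCT-116 cells. The authors aligned single-end reads with BWA to hg19 and ran MACS2 on each ChIP against the matching input, with a threshold tuned to retain 3 WNT target loci. They annotated peaks with RefGene. The versions of these tools are not given in the sources used here. All positions and distances in the deposited tables are in bp, and the score column that the authors deposited, 1 more than the number of bases between start and end in all 14656 peaks, was read as the peak width. In the deposited table of distances between replicates, 6257 of 6263 rows lay within 2 bp of the distances computed here. No per-sample column was left unmapped.

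Motifs were searched in hg19 with pysam 0.24.0, and exact Clopper-Pearson intervals at 95% were computed with scipy 1.17.1. Gene context came from GENCODE 44 on the same build, and current names from RefSeq, which matched 98.5% of the protein-coding names. Scripts were checked on simulated data. Every gene with a shared region was named, and of genes with a peak in 1 replicate the 6 widest peaks of each replicate, to which some others were added after their values were seen. The members and lists were chosen with earlier results of these data known. Alternatives were other sharing limits, wider peaks only, GENCODE start sites, other distances to the TSS, a narrower motif window and each replicate alone. With 2 ChIP replicates and no read counts, no test was run.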

Additional observations from a re-analysis of the deposited data

How the results depend on the processing

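The number of microtubule genes with a shared region was 14. It was 5 with only the wider 50% of the peaks of each replicate (DYNC1H1, DYNLRB1, KIF2C, MAP1LC3B and TUBGCP6) and 9 with only regions within 10 kb of the TSS, settings that leave fewer peaks to match. Counted in 1 replicate without the other, 20 to 24 genes carried a peak. With a limit of 200 bp or 1000 bp between centres, or an overlap of 1 bp, the number was 14. Assignment to the nearest coding TSS in GENCODE gave 17, from a partly different set of regions. KIF2C and MAP1LC3B left that set, and KIF20B, KIF18A, MAP1LC3B2, MAPRE3 and CLASP1 entered it. Over the alternatives run, the share of shared replicate 1 peaks was 58.3 to 75.0%, the share of regions within 1 kb of a TSS 14.3 to 35.7%, with an AP-1 match 11.1 to 28.6%, with a TCF7L2 match 11.1 to 43.3% (43.3% under GENCODE assignment, above the 33.4% of all shared regions), and the median width 371 to 418 bp. Leaving out KIF2C, or counting peaks that met the same replicate 2 peak once, were settings chosen after seeing the data. No paired analysis was possible because the results come from no test. Width depends on sequencing depth, which was unknown, and on the peak threshold, and 18 regions limit the precision of every share.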
